A study of Mus musculus with 6 samples.

Results

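Ptprc, Cd74 and Lyz2 mark blood cells, Pecam1, Cdh5 and Kdr mark endothelial cells, and Pdgfra, Ly6a and Dcn mark fibro-adipogenic cells, the mononuclear cells that share skeletal muscle with its stem cells. These 9 genes, chosen by name as markers of the other lineages, were followed among the 55376 genes of a RIP-seq experiment on freshly isolated mouse satellite cells (fiSCs). In RIP-seq an antibody on beads pulls a protein out of a lysate, and the RNA that comes with it is sequenced. The antibody was against CPEB1 in 2 libraries (CPEB1 IP) and a control IgG in 2 more, and the last 2 held input RNA taken without immunoprecipitation. All 6 came from C57BL/6 mice aged 3 months, and the labels name no transgene, mutation or treatment in any group. The methods describe sorting SCs from hindlimb muscle as negative for CD31, CD45 and Sca1 and positive for mVcam1, so that Pecam1, Ptprc and Ly6a encode the 3 proteins sorted against. The reporting summary calls the RNA-seq replicates of a group biological, while the number of mice behind a library is not given in the sources used here. The p-values measure the spread between these libraries.

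CPEB1 is an RNA-binding protein that recognises the cytoplasmic polyadenylation element (CPE) in the 3′ UTR of a transcript, where it can hold translation back or, once phosphorylated, promote lengthening of the poly(A) tail and translation. A RIP-seq sample reports on the transcripts of every cell that went into the lysate, so that markers of other lineages are read there next to those of SCs. In such bulk RNA, fewer cells of a type and less RNA per cell cannot be told apart. Ptprc encodes CD45, a phosphatase on the surface of nucleated blood cells, Cd74 the invariant chain of MHC class II, and Lyz2 the lysozyme of macrophages and neutrophils. Pecam1 encodes CD31, an adhesion molecule of endothelial junctions, Cdh5 the cadherin of those junctions, and Kdr a VEGF receptor. Pdgfra encodes a PDGF receptor that defines fibro-adipogenic progenitors, Ly6a the surface antigen Sca1, and Dcn decorin, a small proteoglycan that binds collagen.

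The CPE was searched as TTTTAT and TTTTAAT, motifs of which neither contains the other, on the sense strand of every annotated 3′ UTR. Ptprc, Pecam1, Cdh5, Pdgfra and Ly6a carried at least 1 of them, which is 5 of the 9 markers or 55.6%, against 58.8% of the 21067 genes of the tables with an annotated 3′ UTR. No match was found in the 3′ UTRs of Cd74, Lyz2, Kdr and Dcn. The longest 3′ UTR had a median length of 926 bases over the 9 markers and 1086 over all those genes. The lines give, for the 5 markers with a match, the CPE nearest to the 3′ end of the longest 3′ UTR, since this is the element that CPEB1 is known to recognise. They read 5′ to 3′ on the strand of the gene, in the letters of the genome, with the CPE in capitals.
Ptprc, chr1:138064112-138064141, minus strand: ggaaactatacaTTTTATatctaaactgtt
Pecam1, chr11:106654440-106654469, minus strand: ctgttattatttTTTTAATagtaaaaggaa
Cdh5, chr8:104144458-104144487, plus strand: tactgtacctttTTTTATatctaaataaag
Pdgfra, chr5:75197692-75197721, plus strand: cctgctttctatTTTTATgatgacaatcaa
Ly6a, chr15:74995214-74995243, minus strand: ccacccttgtccTTTTATcctcatgtgcaa
The CPE shown for Cdh5 ended 36 bases before the end of the 3′ UTR, that of Pecam1 234, that of Ly6a 349, that of Pdgfra 506 and that of Ptprc 717 bases before it. A match describes the letters in the 3′ UTR and is not a measured binding site.

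The positions of the 9 genes are given on mm10, and each had the same start and end in the deposited tables as in GENCODE M21. Of the blood markers, Ptprc spans chr1:138062861-138175708 on the minus strand, Cd74 chr18:60803848-60812652 on the plus strand and Lyz2 chr10:117277331-117282321 on the minus strand. Of the endothelial markers, Pecam1 spans chr11:106654217-106750628 on the minus strand, Cdh5 chr8:104101625-104144511 on the plus strand and Kdr chr5:75932827-75978458 on the minus strand. Of the fibro-adipogenic markers, Pdgfra spans chr5:75152292-75198215 on the plus strand, Ly6a chr15:74994877-74998031 on the minus strand and Dcn chr10:97479609-97518143 on the plus strand. All are protein coding. Ptprc has the longest summed exons, with 18313 bases, and Ly6a the shortest, with 1205.

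Counts on genes amounted to between 1284716 and 4941653 in a library, with the IgG libraries the shallowest and the CPEB1 IP libraries spanning 2564323 to 4941653. They made up between 69.5% and 79.8% of the library total behind the deposited FPKM in CPEB1 IP and input, and 39.1% and 39.5% in IgG. The IgG libraries were deposited in tables of their own, so that a difference between tables and a difference between IgG and the other groups cannot be told apart. Olfactory receptor genes were taken as not expressed in satellite cells, which was not tested for each gene, and served as a measure of the level that a silent gene reaches. Summed over 1405 such genes, this level was 0.122 and 0.109 CPM per kb of exon in CPEB1 IP, 0.0132 and 0.0135 in input, and 0.610 and 0.640 in IgG. A count was found on 595 and 791 of these genes in CPEB1 IP and on 1004 and 1007 in IgG. In each input library it was found on 46, so that the input rate rests on few genes. Each marker is set beside this rate further below, while the levels of the longer lists are not.

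The labelled cell type was checked first. Vcam1, the surface protein sorted for, stood at 100.5 and 127.9 FPKM in the input libraries, and Pax7, the transcription factor that defines SCs, at 39.8 and 46.0. Each of the 9 markers lay below both SC genes in input. Dcn came closest, at 8.82% and 8.06% of the Vcam1 FPKM and 22.3% and 22.4% of the Pax7 FPKM. Lyz2 reached 5.09% and 4.58% of Vcam1, Pecam1 1.98% and 1.15%, and Ptprc 0% and 0.0103%. This does not hold for every gene of these lineages. Of the longer lists described below, Gsn had 437 and 440 FPKM in input, Serping1 324 and 331, Cav1 181.0 and 229.3, and Dpt 156.9 and 200.1. These genes lay above both SC genes.

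In input, FPKM placed Dcn first at 9.59 ± 1.03 (SD, n = 2), followed by Lyz2 at 5.49 ± 0.522, Cd74 at 5.01 ± 3.06 and Ly6a at 4.99 ± 0.844. Pecam1 came next at 1.73 ± 0.367, and then Cdh5 at 0.763 ± 0.0554. Kdr, at 0.367 ± 0.00879, Pdgfra, at 0.0674 ± 0.0273, and Ptprc, at 0.00658 ± 0.00930, were lowest. Lyz2 and Cd74 overlapped between their libraries, as did Cd74 and Ly6a, and these 3 genes cannot be ordered. All other neighbours in this order were apart in both input libraries. Pdgfra and Ptprc rested on 4 and 2 counts against 0 and 1, whose 95% counting intervals overlap, so that their order is open. No lineage stood above the others as a whole, since Dcn, the highest of the 9, and Pdgfra, 1 of the 2 lowest, were both fibro-adipogenic.

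The blood markers did not behave alike. Ptprc had 0 and 1 counts in input, 0 and 9 in CPEB1 IP, and 28 and 13 in IgG, so that the IgG libraries held more than any other library. A count of 0 allows up to 3 counts, or 0.917 CPM in input replicate 1 and 1.17 CPM in CPEB1 IP replicate 1, for counting error only. Cd74 had 6.71 and 15.7 CPM in input, 16.1 and 17.2 CPM in CPEB1 IP, and 8.81 and 5.63 CPM in IgG. CPEB1 IP lay above every other library for Cd74, although the higher input library came close to it, and the input libraries lay on both sides of an IgG library. Lyz2 had 9.45 and 10.02 CPM in input, 45.0 and 47.3 in CPEB1 IP, and 16.1 and 28.9 in IgG, and the 3 groups did not overlap. Ptprc, the marker that defines blood cells in the sort, was thus at or near 0 in input while Cd74 and Lyz2 were read from 22 to 50 counts.

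Among the endothelial markers, Pecam1 had 17.4 and 11.9 CPM in input, 42.5 and 42.1 in CPEB1 IP, and 18.3 and 42.3 in IgG. The IgG libraries differed from each other, 1 lying near input and the other among CPEB1 IP. Cdh5 had 4.27 and 4.38 CPM in input, 23.1 and 20.5 in CPEB1 IP, and 14.7 and 21.1 in IgG, so that IgG overlapped CPEB1 IP and both lay above input. Kdr had 4.57 and 4.38 CPM in input, 9.08 and 10.8 in CPEB1 IP, and 13.2 and 11.3 in IgG. For Kdr the IgG libraries were highest and the input libraries lowest.

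Among the fibro-adipogenic markers, Pdgfra had 1.22 and 0.626 CPM in input, 4.54 and 2.86 in CPEB1 IP, and 6.61 and 7.75 in IgG, from 2 to 14 counts. The groups did not overlap, and IgG was highest. Ly6a had 9.45 and 6.89 CPM in input, 26.8 and 27.8 in CPEB1 IP, and 29.4 and 17.6 in IgG, whose libraries lay on both sides of CPEB1 IP. Dcn, the most abundant of the markers, had 72.6 and 78.3 CPM in input, 292.8 and 274.7 in CPEB1 IP, and 216.5 and 195.1 in IgG. The 3 groups of Dcn stood in this order without overlap: input, IgG, CPEB1 IP. Such a separation of CPEB1 IP and IgG was common. Of all 12124 genes tested, both CPEB1 IP libraries lay above both IgG libraries for 4626 and below both for 3552. Of the 9 markers they lay above for 3 and below for 3.

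**Figure D1:**
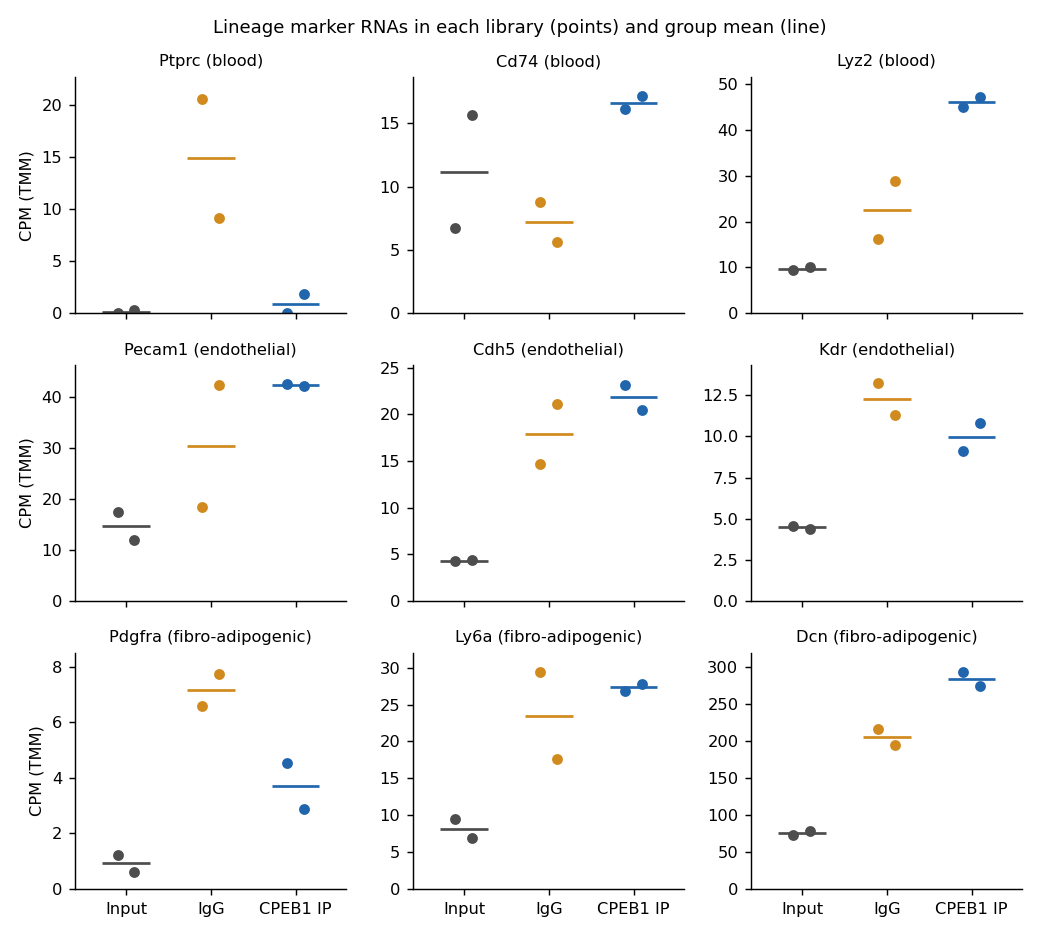
CPM (TMM-normalized, linear axis) of each marker in the 2 input, 2 IgG and 2 CPEB1 IP libraries, with points for libraries and a line for the group mean. Input libraries sit lowest for every marker except Cd74 and Ptprc, and Ptprc is near 0 in all but the IgG libraries. Over all genes tested, both CPEB1 IP libraries lay above both input libraries for 3783 of 12171, and both IgG libraries for 4556 of 12980.

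The first comparison asked which marker RNAs differed between CPEB1 IP and input. With edgeR, Lyz2, Pecam1, Cdh5, Kdr, Ly6a and Dcn were higher in CPEB1 IP, by a factor that ran from 2.33 for Kdr to 5.16 for Cdh5. This was 6 of the 7 markers that passed the filter on low counts, against 17.0% of all 12171 genes tested called higher and 15.8% called lower. DESeq2 called 5 markers higher. None was lower with either tool, at an adjusted or unadjusted p under 0.05. The median log2 fold change was 1.79 over the 7 markers and -0.0038 over all genes tested.

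Cdh5 rose by a log2 fold change of 2.37 ± 0.33 (SE; adjusted p = 1.78e-04, edgeR), and Lyz2 by 2.30 ± 0.23 (adjusted p = 1.83e-05). Dcn rose by 1.97 ± 0.14 (adjusted p = 1.24e-06), the smallest error among them, from the deepest counts. Ly6a had a log2 fold change of 1.79 ± 0.28 (adjusted p = 4.47e-04) and Pecam1 of 1.58 ± 0.24 (adjusted p = 3.56e-04). Both encode proteins that the sort selected against. Kdr rose by 1.22 ± 0.38 (adjusted p = 0.0263). Cd74 did not pass the test, at a log2 fold change of 0.64 ± 0.35 (adjusted p = 0.184). Over the same libraries Vcam1 had a log2 fold change of -0.02 ± 0.13 (adjusted p = 0.907), and Pax7 fell by 1.84 on the log2 scale (SE 0.13, adjusted p = 1.58e-06).

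Ptprc and Pdgfra were too low for this test. Ptprc had 9 counts in CPEB1 IP and 1 in input, a ratio of 7.97 per library size with an exact 95% interval for counting error of 1.10 to 349.3. Pdgfra had 11 and 14 counts in CPEB1 IP against 4 and 2 in input. The call for Kdr was lost with DESeq2 (adjusted p = 0.198), and its adjusted p was 0.0633 and 0.279 when CPEB1 IP replicate 1 or 2 was left out. Cd74 differed between its input libraries, and without input replicate 2 it passed the test at 1.36 on the log2 scale (adjusted p = 0.00187).

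The second comparison set the control immunoprecipitation against input, and shares the input libraries with the first. With edgeR, 8 of the 9 markers were higher in IgG, against 21.4% of all 12980 genes tested called higher and 19.4% called lower. Cd74 was the exception, at a log2 fold change of -0.58 ± 0.50 (adjusted p = 0.365). DESeq2 called 2 markers higher, or 5 at an unadjusted p under 0.05. Neither tool called a marker lower, also at an unadjusted p under 0.05. Ptprc and Pdgfra, with at most 4 counts in an input library, passed the filter on low counts through IgG, which favours a higher call. The median log2 fold change was 1.49 over the 9 markers and 0.031 over all genes tested. Over all genes, 2772 were higher and 2515 lower with edgeR, and 1056 higher and 1560 lower with DESeq2. The log2 fold changes of all genes shifted by a median of -0.14 with DESeq2 and of -0.27 without the filter on low counts.

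The fibro-adipogenic markers Pdgfra, Ly6a and Dcn had log2 fold changes of 2.92 ± 0.65 (adjusted p = 3.75e-04), 1.55 ± 0.40 (adjusted p = 0.00203) and 1.49 ± 0.17 (adjusted p = 7.86e-09). Among the endothelial markers, Cdh5 rose by 2.08 ± 0.46 (adjusted p = 3.94e-04), Kdr by 1.48 ± 0.50 (adjusted p = 0.0157) and Pecam1 by 1.09 ± 0.36 (adjusted p = 0.0142). Lyz2 rose by 1.25 ± 0.39 (adjusted p = 0.00999). Ptprc passed the test as well (adjusted p = 2.09e-07), with 41 counts in IgG against 1 in input, a ratio of 95.4 per library size with an exact 95% interval for counting error of 16.2 to 3859. In IgG, Ptprc stood at 1.84 and 0.782 times the rate of the olfactory receptor genes, and Pdgfra at 1.08 and 1.21 times. Both had passed the filter through IgG, so that their calls are not read as a rise of these markers. Under the same contrast Vcam1 fell by 0.84 on the log2 scale (SE 0.13, adjusted p = 2.29e-06) and Pax7 by 1.98 (SE 0.17, adjusted p = 3.48e-12).

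With DESeq2, Ptprc and Dcn kept the call among the 9 markers, while Cdh5 (adjusted p = 0.0751), Pdgfra (0.131), Ly6a (0.131), Lyz2 (0.238), Pecam1 (0.274) and Kdr (0.297) lost it. Leaving out a library left 5 markers called without input replicate 2, IgG replicate 1 or IgG replicate 2, and 6 without input replicate 1, and Pecam1 stood at 0.34 on the log2 scale without IgG replicate 2 (adjusted p = 0.649).

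The third comparison, CPEB1 IP against IgG, addressed which transcripts were associated with CPEB1 beyond the control, and shares a group with each of the others. Cd74, Lyz2 and Dcn were higher in CPEB1 IP and Ptprc was lower, out of 9 markers tested, while 14.7% of all 12124 genes tested were called higher and 18.7% lower. Ptprc and Pdgfra again passed the filter on low counts through IgG, which favours a lower call. The median log2 fold change was 0.16 over the 9 markers and -0.011 over all genes tested. Over all genes, edgeR called 1779 higher and 2265 lower, DESeq2 called 2635 higher and 998 lower, and edgeR without the filter on low counts called 3513 higher and 2336 lower. Without that filter the log2 fold changes of all genes shifted by a median of 0.40, and with DESeq2 by 0.28.

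Cd74 had a log2 fold change of 1.11 ± 0.39 (adjusted p = 0.0342), Lyz2 of 0.93 ± 0.24 (adjusted p = 0.00574) and Dcn of 0.36 ± 0.10 (adjusted p = 0.0110). Ptprc fell by 3.68 on the log2 scale (SE 0.62, adjusted p = 1.56e-04). It stood at 0 and 0.919 times the rate of the olfactory receptor genes in CPEB1 IP and at 1.84 and 0.782 times in IgG. That rate was itself higher in IgG, so that the call is not read as a fall of the marker. Pecam1, at 0.37 ± 0.26 (adjusted p = 0.296), Cdh5, at 0.16 ± 0.30 (adjusted p = 0.719), and Ly6a, at 0.13 ± 0.27 (adjusted p = 0.763), did not pass the test. Neither did Kdr, at -0.37 ± 0.38 (adjusted p = 0.490), or Pdgfra, at -1.12 ± 0.48 (adjusted p = 0.0806). For Pecam1 and Ly6a the IgG libraries were far apart, as their CPM values show. Vcam1 had a log2 fold change of 0.70 ± 0.09 (adjusted p = 1.59e-05), and Pax7 of 0.02 ± 0.14 (adjusted p = 0.945).

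Some of these calls were lost when a library was left out, which leaves a group with 1 library. Cd74 then stood at 1.19 and 1.08 on the log2 scale without CPEB1 IP replicate 1 or 2, and at 1.52 and 0.87 without IgG replicate 1 or 2. Lyz2 stood at 0.63 and 1.46 without IgG replicate 1 or 2, and Dcn at 0.49 and 0.33. Pecam1 moved most between these 2 fits, from -0.047 to 1.15. Without the filter on low counts, Pecam1 passed the test at 0.77 (adjusted p = 0.0263). Cd74 lost its call when all 3 groups entered the fit (adjusted p = 0.0522), and Ptprc lost its call with DESeq2 (adjusted p = 0.106).

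**Figure D2:**
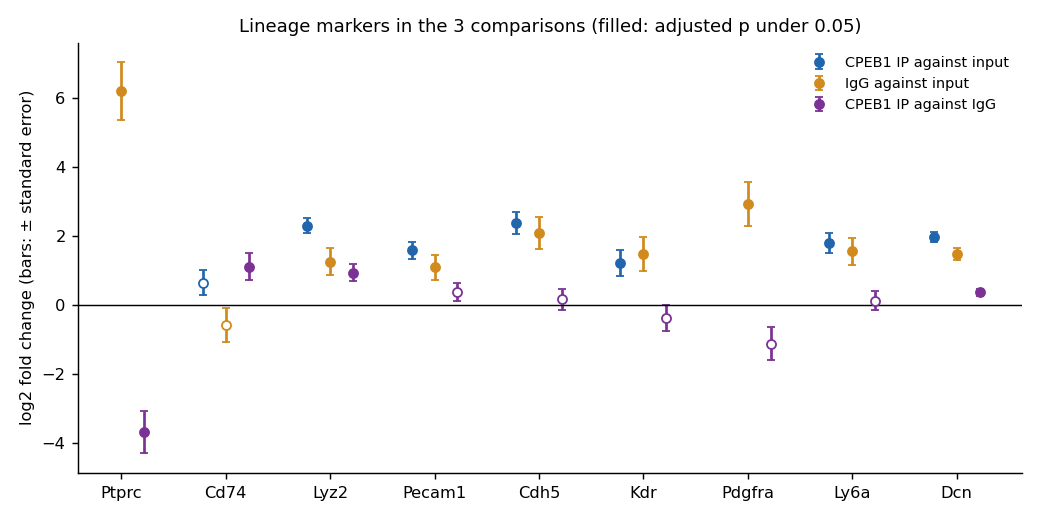
Log2 fold change of each marker in the 3 comparisons, with bars for the standard error and filled points for an adjusted p under 0.05 (edgeR). Against input, points of CPEB1 IP and IgG lie above 0 for every marker tested except Cd74 in IgG, while CPEB1 IP against IgG ranges from -3.68 for Ptprc to 1.11 for Cd74. Ptprc and Pdgfra were not tested in CPEB1 IP against input, and passed the filter on low counts through IgG in the comparisons shown for them.

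The methods also divide the FPKM of CPEB1 IP by that of IgG and ask for more than 2 in each experiment, which was computed here on FPKM plus 1. Cd74 reached 2.29 and 3.39, Lyz2 3.84 and 2.58, and Dcn 2.06 and 2.28, and these 3 markers passed, while 4.41% of the 42045 genes with a count did. The genes with a count include those too low for the edgeR test, which all 9 markers entered. The same 3 markers were higher with edgeR, and 12.1% of the genes tested there met both criteria. Pecam1 passed in the first experiment with 2.46 and missed in the second with 1.5, and Ly6a missed in the first with 1.40 and passed in the second with 2.42. Cdh5 reached 1.88 and 1.42, Kdr 1.03 and 1.21, Pdgfra 1.02 and 0.909, and Ptprc 0.680 and 0.888. Vcam1 had ratios of 2.91 and 2.68, and Pax7 of 1.5 and 1.82. The median log2 ratio was 0.38 and 0.41 over the genes above a lower limit on mean FPKM in CPEB1 IP and IgG, which are fewer than those with a count. When FPKM was set on TMM library sizes in place of the totals behind the deposited values, 0 of the 9 markers and 210 of all genes passed.

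The levels were then set beside the rate of the olfactory receptor genes in the same library. In IgG, Ptprc stood at 1.84 and 0.782 times the count that its exon length would collect at that rate, and Pdgfra at 1.08 and 1.21 times. Kdr stood at 2.40 and 1.95 times the rate in IgG. Pecam1 reached 4.83 and 10.6 times, Cdh5 5.73 and 7.86 times, and Cd74 8.61 and 5.25 times, and Lyz2, Ly6a and Dcn lay between 20.1 and 60.8 times the rate. The markers nearest to the rate were those with the longest exons, Ptprc, Pdgfra and Kdr, with 18313, 10024 and 9030 bases.

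In CPEB1 IP, Ptprc stood at 0 and 0.919 times the rate, Pdgfra at 3.70 and 2.61 times and Kdr at 8.22 and 11.0 times. The other 6 markers reached from 44.5 times for Cdh5 to 430 times for Dcn. In input, Ptprc stood at 0 and 1.27 times the rate and Pdgfra at 9.22 and 4.64 times, and the other 7 lay between 36.1 times for Kdr and 996 times for Dcn. The 95% counting interval of Ptprc held the count at the rate in both input libraries, in CPEB1 IP replicate 2 and in IgG replicate 2. It lay below the rate in CPEB1 IP replicate 1, with 0 counts against 5.43, and above it in IgG replicate 1, where 28 counts had an interval of 18.6 to 40.5 and the rate gave 15.2. The intervals of Pdgfra held the rate in both IgG libraries.

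Taking this rate off the counts of each gene, an alternative chosen after seeing the data, left Ptprc and Pdgfra untested in all 3 comparisons, since Ptprc kept 13 and 0 counts in IgG and Pdgfra 1 and 2. Against input, Lyz2, Pecam1, Cdh5, Ly6a and Dcn stayed higher in CPEB1 IP, and Lyz2, Cdh5, Ly6a and Dcn in IgG. Their log2 fold changes lay between 1.58 and 2.36 in CPEB1 IP and between 1.46 and 2.12 in IgG. Between CPEB1 IP and IgG, none of the 7 markers tested passed with edgeR and 2 had an unadjusted p under 0.05. Cd74 had an adjusted p of 0.101, Lyz2 of 0.0616 and Dcn of 0.296, and 719 of 10639 genes were called higher.

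**Figure D3:**
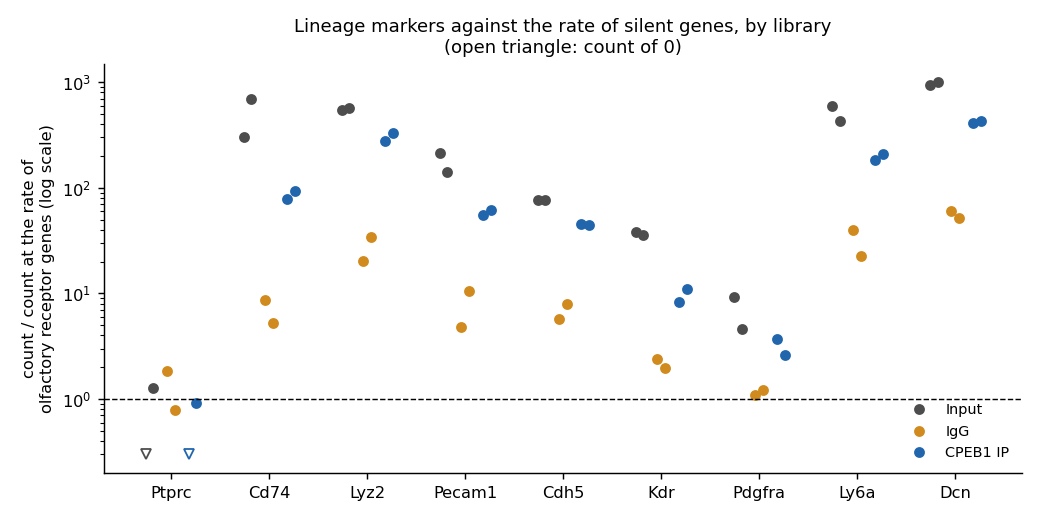
Count of each marker divided by the count that its exon length would collect at the rate of the olfactory receptor genes of the same library, on a log axis, for each library, with an open triangle for a count of 0. The dashed line is the rate itself, near which lie Ptprc where it has a count and Pdgfra in IgG, while Dcn lies between 52.3 and 996 times the rate.

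Longer lists of lineage genes gave the setting for the 9 markers, which are themselves members of these lists. The shares of all genes tested, against which each list is read, were 17.0% higher and 15.8% lower in CPEB1 IP against input. In IgG against input they were 21.4% and 19.4%. Of the endothelial list, 20 of the 24 genes tested were higher in CPEB1 IP than in input and none was lower, with a median log2 fold change of 1.74, and 15 of 22 were higher in IgG than in input and none lower, with a median of 1.22. At an unadjusted p under 0.05, 0 were lower in CPEB1 IP and 1 in IgG, with DESeq2 as with edgeR. Over the alternatives the number higher ran from 14 to 21 in CPEB1 IP and from 5 in IgG, with DESeq2, to 17. Aqp1, a water channel of capillary endothelium, rose by 1.91 ± 0.20 in CPEB1 IP (adjusted p = 2.59e-05) and by 1.16 ± 0.19 in IgG (adjusted p = 6.64e-06), from 104.3 and 62.3 CPM in input. Robo4, an endothelial guidance receptor, rose by 1.99 ± 0.41 in CPEB1 IP (adjusted p = 0.00286) and had a log2 fold change of 0.63 ± 0.60 in IgG (adjusted p = 0.421). Vwf, the von Willebrand factor, rose by 1.57 ± 0.42 in IgG (adjusted p = 0.00271) and had 0.06 ± 0.39 in CPEB1 IP (adjusted p = 0.926). The IgG call for Vwf was lost in 2 of 11 alternatives, over which its log2 fold change ran from 0.88 to 1.86. Cav1, the coat protein of caveolae and the highest of the list in input, rose by 0.38 ± 0.13 in CPEB1 IP (adjusted p = 0.0359), and Tek, the angiopoietin receptor, had -0.11 ± 0.15 (adjusted p = 0.608).

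The fibro-adipogenic list had genes called in both directions, as did all genes tested, of which 21.4% were higher and 19.4% lower in IgG against input. Against input, 8 of 22 genes were higher and 6 lower in CPEB1 IP, with a median log2 fold change of 0.44, and 7 of 23 were higher and 6 lower in IgG, with a median of -0.018. The balance of directions moved with the setting. In CPEB1 IP the counts were 5 higher and 3 lower without either CPEB1 IP library, and 5 and 5 with DESeq2. In IgG they were 1 higher and 6 lower with DESeq2, and 3 and 6 without input replicate 1 or IgG replicate 1. Dcn and Ly6a were on the higher side, with Smoc2, a matricellular protein, at 2.44 ± 0.25 in CPEB1 IP (adjusted p = 2.02e-05) and 1.68 ± 0.37 in IgG (adjusted p = 3.79e-04). On the lower side, Gsn, which encodes the actin-severing gelsolin, fell by 0.44 in CPEB1 IP (SE 0.12, adjusted p = 0.0162) and by 0.95 in IgG (SE 0.13, adjusted p = 1.73e-07). Pdgfrl fell by 0.67 in CPEB1 IP (SE 0.15, adjusted p = 0.00412) and by 2.18 in IgG (SE 0.21, adjusted p = 1.68e-10), and Dpt, the matrix protein dermatopontin, by 0.42 (SE 0.13, adjusted p = 0.0256) and 1.12 (SE 0.15, adjusted p = 2.40e-07). Serping1, the C1 inhibitor, had -0.15 ± 0.12 in CPEB1 IP (adjusted p = 0.357) and fell by 0.77 in IgG (SE 0.13, adjusted p = 1.20e-05). Gsn, with 437 and 440 FPKM, and Serping1, with 324 and 331 FPKM, were far more abundant in input than Dcn, at 8.86 and 10.3.

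Few genes of the blood list could be tested. Of its 30 genes, 9 passed the filter for CPEB1 IP against input, where Lyz2 was the only gene called, and 8 for IgG against input, where Ptprc, Lyz2 and Csf1r were higher. Csf1r, the receptor of the macrophage growth factor, had 6.10 and 2.19 CPM in input and 15.4 and 9.16 CPM in IgG, and rose by 1.58 ± 0.53 (adjusted p = 0.0161). This call was lost in 5 of 11 alternatives, and DESeq2 called 1 gene of the list higher in IgG. S100a8, a neutrophil protein, had -0.40 ± 0.50 in CPEB1 IP (adjusted p = 0.577) and -0.14 ± 0.51 in IgG (adjusted p = 0.847), with 4.27 and 16.3 CPM in the input libraries. S100a9, its partner, had 0.49 ± 0.48 (adjusted p = 0.465) and 0.43 ± 0.60 (adjusted p = 0.600), and Cd68, a lysosomal protein of macrophages, -0.42 ± 0.39 (adjusted p = 0.438) and 0.58 ± 0.37 (adjusted p = 0.218). Summed over the list, levels ran from 70.7 to 83.3 CPM in input, from 121.8 to 135.8 in CPEB1 IP and from 138.8 to 147.5 in IgG, and from 0 to 9 of the 30 genes had no count in a library.

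In CPEB1 IP against IgG, 2 of 7 blood genes were higher and 3 lower, with a median log2 fold change of -0.37. The higher ones were Cd74 and Lyz2, and the lower ones Ptprc, Csf1r at -1.74 ± 0.46 (adjusted p = 0.00570) and Cd68 at -1.11 ± 0.33 (adjusted p = 0.0138). Ptprc passed the filter on low counts through IgG, where it had 28 and 13 counts. Over the alternatives from 0 to 2 blood genes were higher and from 0, with DESeq2, to 4 lower, with 1 lower without CPEB1 IP replicate 1 and 1 without the filter on low counts. The call for Csf1r was lost in 6 of 11 alternatives and that for Cd68 in 4. The endothelial list had 5 of 24 higher and 1 lower, with a median of 0.29. Of all genes tested in this comparison, 14.7% were called higher and 18.7% lower. Robo4 at 1.24 ± 0.44 (adjusted p = 0.0363), Ly6c1, Aqp1, Cldn5 and Cd36 were higher and Vwf lower at -1.63 ± 0.37 (adjusted p = 0.00179), of which Cldn5 and Cd36 were named after their values were seen. The call for Robo4 was lost in 4 of 11 alternatives, that for Ly6c1 in 5, that for Vwf in 1 and that for Aqp1 in 0. The fibro-adipogenic list had 7 of 21 higher and none lower with edgeR or DESeq2, or 1 lower at an unadjusted p with edgeR and 0 with DESeq2, with a median of 0.37, and was led by Pdgfrl at 1.39 ± 0.18 (adjusted p = 1.18e-05). Over the alternatives the number higher ran from 2 to 10 for the endothelial list and from 3 to 11 for the fibro-adipogenic list. With the olfactory receptor rate subtracted, 0 endothelial genes were called lower, so that Vwf lost its call.

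**Figure D4:**
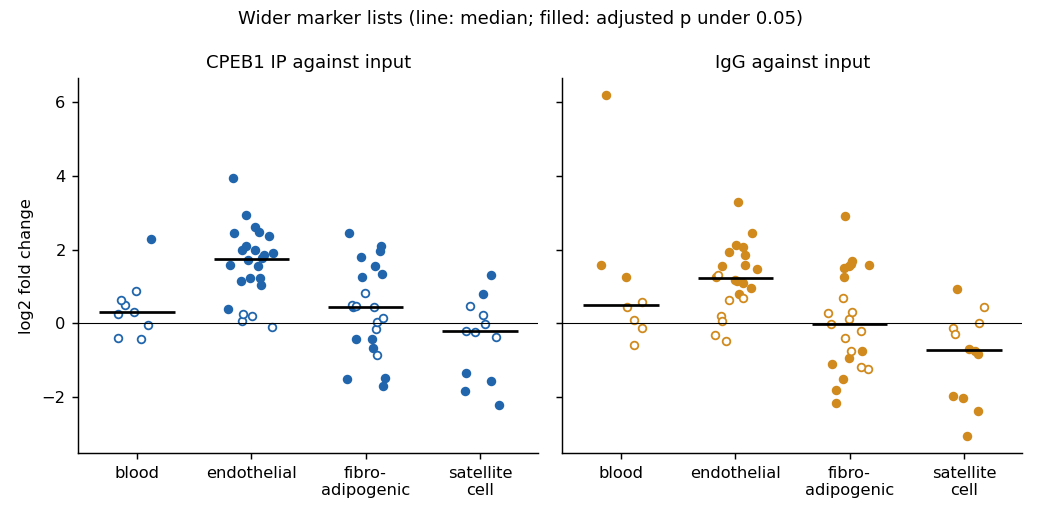
Log2 fold change of each tested gene of the blood, endothelial, fibro-adipogenic and satellite cell lists in CPEB1 IP against input and in IgG against input, with filled points for an adjusted p under 0.05 (edgeR) and a line for the median. The endothelial medians lie at 1.74 and 1.22, and the satellite cell medians at -0.22 and -0.74.

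Markers of the remaining cells of the tissue were counted in the same way, and are read against the same shares of all genes tested. Erythroid genes, the globins Hbb-bs, Hba-a1 and Hba-a2, were higher than input in CPEB1 IP and in IgG, 3 of 3 tested in each, with medians of 3.43 and 3.20 on the log2 scale, and were named after their values were seen. Of 10 mural genes, which mark pericytes and smooth muscle around the vessels, 6 were lower in CPEB1 IP, and Rgs5, Tagln, Notch3, Pdgfrb and Acta2 were lower in IgG. None of them was higher in either, with edgeR or DESeq2 and also at an unadjusted p under 0.05. Of 12 satellite cell genes, Myod1 and Chrdl2 were higher and Pax7, Heyl, Calcr and Cdh15 lower in CPEB1 IP, with a median of -0.22, and Myod1 was higher and 7 were lower in IgG, with a median of -0.74. The mural and satellite cell genes other than Pax7 were also named after their values were seen. Tenocyte, Schwann cell and myofibre lists had medians of 1.85, 1.02 and 0.72 in CPEB1 IP and of 1.28, 0.75 and 1.01 in IgG. The part of any of these cells in the differences of the 9 markers was not tested.

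Reads of close paralogs could have been counted on some of the markers. Of the 75-base windows of the transcripts, 5.96% of Lyz2 were shared with Lyz1, and 6.33% of Ly6a with Ly6c1 or Ly6i. Lyz1 had 0 counts in both input libraries, 4 and 10 in CPEB1 IP, and 6 and 2 in IgG, far below Lyz2. Ly6c1, a surface antigen also found on endothelium, had 3.66 and 6.58 CPM in input, 37.2 and 38.7 in CPEB1 IP, and 23.5 and 20.4 in IgG, and rose by 2.94 ± 0.29 in CPEB1 IP (adjusted p = 1.87e-05) and by 2.13 ± 0.44 in IgG (adjusted p = 1.37e-04). Both Ly6a and Ly6c1 were thus lowest in input, and Ly6c2 had at most 5 counts in any library. Pdgfra shared 4.05% of its windows, with Gm42802 and Gm42803 on the opposite strand, Pecam1 shared 0.455%, and no window of the other 5 markers was shared. Cdh5 overlaps the antisense gene Gm29682 and Ptprc the transcript A130071D04Rik, and the strand setting of the counting is not given in the sources used here.

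The genes whose profile over the 6 libraries was most like a marker were sought among 11150 genes with at least 5 CPM on average, by the root mean square difference of centred log2 CPM. Kdr was nearest to Ptcd3 and Galnt15, at 0.053 and 0.073. Cdh5 was nearest to Otulin and Hp, at 0.11 and 0.12, and Dcn to Ociad2 and Nol8, at 0.12 for each. Pecam1 was nearest to Dnd1, at 0.12, and Ly6a to Hras and Polr1b, each at 0.15. Cd74 was nearest to Fitm2, at 0.17, and Akap11, at 0.21, and Lyz2 to Cd3eap, at 0.22, and Sfrp5, at 0.24. None of the 7 markers searched had another of the 9 among its nearest pair. Ptprc and Pdgfra, which were not tested in every comparison, were not searched.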

How the data were processed

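RNA from CPEB1 IP, IgG control and input of fiSCs was sequenced, 2 libraries for each group, grouped by the sample labels. The study's methods describe SMART-Seq2 libraries. Per the methods, HISAT placed the reads on mm10 and featureCounts assigned them to genes, and the raw counts were deposited without normalization by the authors. Deposited FPKM values derive from those counts, the exon length and a library total of the authors, which exceeds the sum of the counts. The submitters' processing notes list HISAT2, StringTie and featureCounts. The annotation release, the strand setting and the handling of reads that map to several places are not given in the sources used here. The deposited exon length, in bases, is the authors' value from the counting step.

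Here, counts were analysed with edgeR 4.0.16 in R 4.3.3: filterByExpr, TMM, and the quasi-likelihood test between 2 groups at a time, with Benjamini-Hochberg adjustment over all genes tested and a threshold of 0.05. Standard errors are the log2 fold change divided by the square root of F. CPM used TMM factors over the 6 libraries. Every sample column was used, and procedures were tested on simulated data. Alternatives were DESeq2 1.42.0, RLE sizes, no filter, a replicate block, 3 groups in 1 fit, counts on genes alone as library size, other pseudocounts, and each library left out. Subtracting the olfactory receptor rate was added after seeing the data. A replicate left out leaves a group with a single library, which is assumed to vary like the other group. Python 3.11.15 with scipy 1.17.1 gave exact intervals, which cover counting error only, and reads were not collapsed by molecule. 3′ UTRs came from GENCODE M21.

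The 9 markers and all lists were chosen with earlier results of these data known. Genes named beyond them were Vcam1, Pax7, the paralogs Lyz1, Ly6c1 and Ly6c2, the 3 genes of each lineage list highest in input, up to 3 with the largest change among those called in CPEB1 IP against IgG, and the 2 genes nearest to each marker, of which 1 is not reported here. Same-numbered libraries did not deviate together (r between -0.0534 and 0.0295 over 11817 genes), and the labels do not tie them.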

Additional observations from a re-analysis of the deposited data

How the results depend on the processing

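Of 270 values of single markers under the alternatives, 225 kept their direction and their side of the threshold, 35 kept the direction but lost the call, 3 gained a call and 7 changed sign. For CPEB1 IP against IgG the markers called lower fell from 1 to 0 with DESeq2, and those called higher from 3 to 0 and lower from 1 to 0 with the olfactory receptor rate subtracted, an alternative chosen after seeing the data. Genes called lower were 998 with DESeq2, genes called higher 3513 without the filter, and the subtraction gave 719 higher and 1041 lower. Leaving out a library gave 1054 to 1783 genes higher and 677 to 1750 lower. For CPEB1 IP against input DESeq2 called 1222 genes higher and 1184 lower, and leaving out a library gave 957 to 2646 higher and 1064 to 2347 lower. For IgG against input DESeq2 called 1056 genes higher and 1560 lower and 2 markers higher, the fit without the filter 5 markers, and the subtraction 1669 genes and 4 markers. Leaving out a library gave 1354 to 2170 genes and 5 to 6 markers higher. The FPKM ratio passed 3421 genes with a pseudocount of 0.1, 688 genes and 1 marker with 5, and 210 genes and 0 markers on TMM library sizes, and 3369 to 3789 genes when 1 experiment was left out. The cause was not tested for any of these, apart from the smaller number of libraries or genes.

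Log2 fold changes that changed sign had not been past the threshold, and most stayed near 0. In CPEB1 IP against IgG they were Kdr (0.034) and S100a8 (0.041) without the filter, Pax7 (-0.045) on counts on genes alone, and Kdr (0.075), Ly6a (-0.048), Pax7 (-0.14) and Cav1 (-0.011) with the subtraction, and when single libraries were left out Pecam1 (-0.047 to 1.15), Cdh5 (-0.021 to 0.497), Ly6a (-0.15 to 0.589) and Pax7 (-0.032 to 0.169). In CPEB1 IP against input they were Csf1r (0.117) with the replicate block and Vwf on counts on genes alone (-0.011) and with the subtraction (-0.331), and with each library left out Csf1r (-0.604 to 0.858), Vwf (-0.175 to 0.312), Cd68 (-0.939 to 0.258), Vcam1 (-0.158 to 0.083) and S100a8 (-1.07 to 0.844). In IgG against input they were Cav1 without the filter (-0.207) and with DESeq2 (-0.078), and with each library left out Cav1 (-0.023 to 0.161), Cd74 (-1.05 to 0.119) and S100a8 (-0.792 to 1.08).

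With the replicate number as a block, 3 markers were higher and 1 lower in CPEB1 IP against IgG, 6 higher in CPEB1 IP against input and 8 higher in IgG against input, the same numbers as without it, and 1739, 1937 and 2777 of all genes were higher. Precision is limited by 2 libraries in a group and, for Ptprc and Pdgfra, by counts of 28 or fewer in any library.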
